A study of Mus musculus with 6 samples.

Results

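Tight junction genes were examined in the inner enamel epithelium (IEE), the sheet of dental epithelial cells that faces the dental papilla and later becomes the enamel-forming ameloblasts. The set was chosen by gene symbol and held 9 of the 18152 genes in the deposited table. It comprised the claudins *Cldn1*, *Cldn3*, *Cldn4*, *Cldn7*, *Cldn10* and *Cldn12*, the membrane protein gene *Ocln*, and the scaffold genes *Tjp1* and *Tjp3*. RNA came from the IEE of mandibular first molars of mouse embryos at E18.5, cut from frozen head sections by laser capture microdissection. There were 3 libraries from *Kdf1* fl/fl embryos, which carry the floxed gene without Cre and which the sample labels call control and WT, and 3 from *K14-Cre;Kdf1* fl/fl embryos, labelled cKO. Both lines are on a C57BL/6J background. In the cKO, Cre recombinase under the keratin 14 promoter deletes *Kdf1* in keratin 14-expressing epithelia of the whole embryo, so the deletion was not restricted to the tooth. How many embryos went into a library is not given in the sources used here, and p values measure the spread between these libraries.

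Tight junctions seal the space between neighbouring epithelial cells near their apex. Claudins are small membrane proteins with 4 membrane-spanning segments that polymerise into the strands of the seal, and their mixture sets whether ions pass or are held back. Occludin sits in the same strands, and the zonula occludens proteins encoded by *Tjp1* and *Tjp3* tie strand proteins to the actin cytoskeleton. In the tooth, such junctions hold the ameloblast layer together and separate the forming enamel from the tissue around it.

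Library totals ran from 14713918 to 16675133 estimated counts. Values are given as CPM, counts scaled to a common library size after TMM normalisation, when one gene is compared between libraries. They are given as TPM, which is scaled for transcript length, when genes are compared with each other. *Kdf1* was at 52.5, 44.3 and 52.7 CPM in the control libraries, and 1 count was present in the 3 cKO libraries together. Differences between cKO and control were tested in edgeR by quasi-likelihood over 14131 genes, with p adjusted after Benjamini-Hochberg. To pass the study's criterion, a gene needed a log2 fold change of 1 or more in size and an adjusted p no higher than 0.05. The criterion was met by 61 genes (0.432%), and by 0.290% in the direction of a fall. The adjusted p values of 70 genes lay between 0.049 and 0.05, so small changes of the procedure move many calls. All 8 dental epithelium markers had negative log2 fold changes, with a median of −0.68, and 50.5% of all tested genes had negative values. The markers had a summed level of 6943 to 10899 CPM in control and 4177 to 6774 CPM in cKO libraries. In bulk RNA, fewer epithelial cells in the captured area and less RNA of these genes per cell cannot be told apart.

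In the control IEE, *Cldn1* was the most abundant claudin of the 26 in the table, at 84.8 ± 7.99 TPM (SD, n = 3 for this and the following values). Of the other genes of the set, *Tjp1* was highest at 50.6 ± 3.50 TPM, and *Cldn10* was next at 39.8 ± 4.40 TPM. *Cldn4* was at 26.0 ± 12.2 TPM, and its libraries, at 40.0, 19.1 and 18.8 TPM, reached from the level of *Cldn10* to that of *Cldn12*. *Cldn12* was at 18.6 ± 1.61 TPM and *Ocln* at 14.8 ± 1.67 TPM, with every *Cldn12* value above every *Ocln* value. *Cldn7* at 1.74 ± 1.36 TPM and *Tjp3* at 1.5 ± 0.60 TPM overlapped each other. *Cldn3*, a claudin of many simple epithelia, was close to absent at this depth, with 4, 0 and 2 counts in the control and 0, 1 and 0 counts in the cKO libraries. A count of 0 allows up to 3 counts, or 0.182 to 0.198 CPM.

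Of the 9 genes, 7 had enough counts to be tested, and 1 of these passed the criterion. This was *Cldn4*, which fell in the cKO IEE to a level 9.98 times lower than in the control. The other 6 tested genes did not pass. *Ocln*, *Cldn10*, *Tjp3*, *Tjp1* and *Cldn12* had negative log2 fold changes between −1.09 and −0.37, and *Cldn1* had 0.17. In 4 of the 7 tested genes, *Cldn4*, *Ocln*, *Tjp1* and *Cldn12*, every cKO library lay below every control library, a pattern that 16.2% of all tested genes showed. *Cldn3* and *Cldn7* were below the filter on low counts and are given by their counts.

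**Figure D1:**
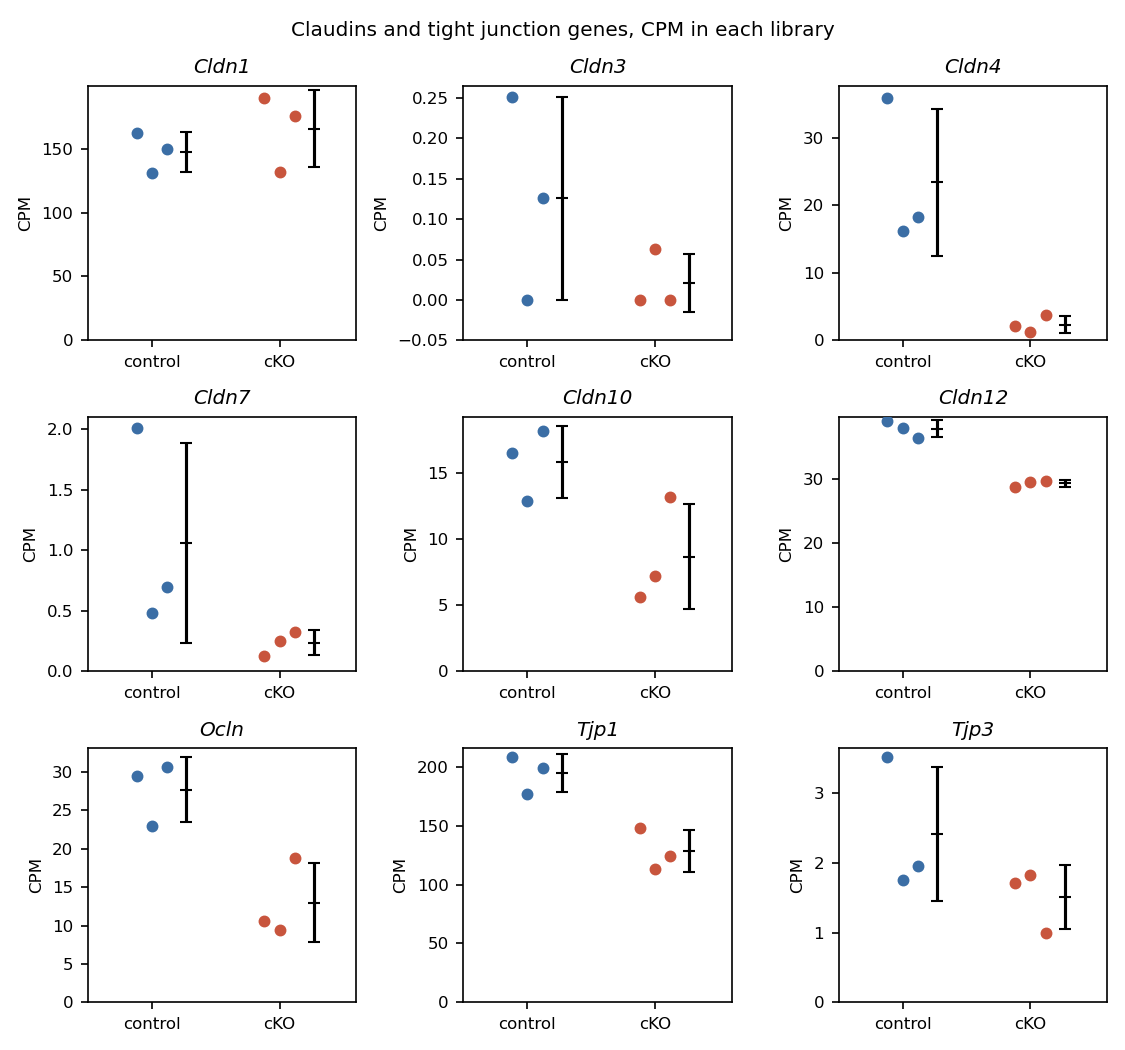
CPM of the 9 genes in each library, with 3 control points (blue) and 3 cKO points (red) per panel and a separate axis for each gene. The black bars are the mean and SD (n = 3). The *Cldn4* points of the cKO lie between 1.20 and 3.69 CPM, below the control points at 16.2 to 35.9 CPM, whereas the *Cldn1* points of the groups overlap.

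*Cldn4* encodes a sealing claudin of suprabasal and secretory epithelia, known as a receptor of the *Clostridium perfringens* enterotoxin. It was at 35.9, 16.2 and 18.2 CPM in the control libraries and at 2.15, 1.20 and 3.69 CPM in the cKO libraries. The highest cKO library was thus well under the lowest control library, although the first control library held about as much as the other two together. The group means were 23.4 ± 10.9 and 2.35 ± 1.26 CPM (SD, n = 3 per group), and the log2 fold change was −3.32 (SE 0.49, 95% interval −4.47 to −2.17), with an adjusted p of 0.0498 in edgeR. With the replicate number as a block, the value was −3.33 with an adjusted p of 0.00952 (edgeR). When each library was left out in turn, the log2 fold change stayed between −3.77 and −2.86. The adjusted p in edgeR was then 0.0476 without cKO replicate 3 and 0.0712 to 0.210 without each of the others. The call was thus lost in 5 of 6 such fits. Over all tested genes, 465 passed without cKO replicate 3 and 1 to 16 without each of the others. *Cldn4* lies next to *Cldn3* on chromosome 5, and the neighbour was near the detection limit in both groups.

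*Cldn1* encodes a claudin that the epidermal barrier depends on. Its level was 162, 131 and 149 CPM in control and 189, 132 and 176 CPM in cKO libraries. The groups overlapped, and the difference of 0.17 on the log2 scale (SE 0.16, 95% interval −0.21 to 0.55, adjusted p = 0.559 in edgeR) was no larger than the spread between replicates. The interval leaves room for a moderate rise and for a slight fall.

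*Cldn10*, a claudin whose isoforms form cation- or anion-selective pores, was at 16.5, 12.9 and 18.2 CPM in control and 5.63, 7.24 and 13.2 CPM in cKO libraries. Replicate 3 of the cKO reached into the control range. The estimate was −0.87 on the log2 scale (SE 0.33, adjusted p = 0.170 in edgeR), and without that library it was −1.28 with an adjusted p of 0.0491, past the criterion. *Cldn12*, an atypical claudin, had 39.1, 37.9 and 36.4 CPM in control and 28.7, 29.5 and 29.7 CPM in cKO libraries. Both groups were tight and did not overlap, and the difference was small, at −0.37 on the log2 scale (SE 0.11, adjusted p = 0.116 in edgeR).

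*Cldn7*, a claudin of basolateral membranes that binds EPCAM, was rare. It had 32, 8 and 11 counts in control and 2, 4 and 5 counts in cKO libraries, so the groups did not overlap but rested on few reads. With no filter on low counts its log2 fold change was −2.14 (SE 0.71) and the adjusted p 0.147 (edgeR).

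*Ocln*, which encodes occludin, was at 29.5, 22.9 and 30.7 CPM in control and 10.6, 9.44 and 18.9 CPM in cKO libraries. All cKO libraries were lower, and replicate 3 was closest to the control. The means of 27.7 ± 4.21 and 13 ± 5.1 CPM (SD, n = 3 per group) gave −1.09 on the log2 scale (SE 0.29, 95% interval −1.77 to −0.42, adjusted p = 0.0892 in edgeR). *Ocln* passed the criterion when the replicate number was a block (−1.15, adjusted p = 0.0210 in edgeR), in DESeq2 (−1.08, adjusted p = 0.00848) and without cKO replicate 3 (−1.44, adjusted p = 0.0476 in edgeR). Leaving out any other library gave −1.22 to −0.88 with adjusted p values of 0.117 to 0.304 (edgeR), not past the criterion. With the block 2 of the 7 tested genes had fallen, *Cldn4* and *Ocln*, against 1.92% of all tested genes. The same 2 genes passed in DESeq2, against 1.88% of all tested genes.

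*Tjp1* encodes ZO-1, the main scaffold of the junctional plaque. It was at 208, 177 and 199 CPM in control and 148, 113 and 124 CPM in cKO libraries, without overlap. The difference on the log2 scale was −0.60 (SE 0.14, 95% interval −0.92 to −0.28) and the adjusted p 0.0747 in edgeR. With the block the adjusted p was 0.0248 (edgeR) and in DESeq2 0.00708, but the fold change was under the limit of the criterion in both. *Tjp3*, which encodes the related scaffold ZO-3, had 3.52, 1.76 and 1.96 CPM in control and 1.71, 1.82 and 0.989 CPM in cKO libraries. These groups overlapped, and the log2 estimate was −0.67 (SE 0.42, 95% interval −1.65 to 0.31, adjusted p = 0.358 in edgeR).

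Since all 8 dental epithelium markers had negative values, the fit was repeated with libraries scaled to the geometric mean of these 8 markers. This moved the median log2 fold change over all tested genes from −0.0043 to 0.82, so values on this scale are read against the markers and not against the average gene. *Cldn4* remained lower, at −2.57 (SE 0.40, adjusted p = 0.0211 in edgeR). *Ocln* was at −0.34 (SE 0.25) and *Cldn10* at −0.11 (SE 0.29), with adjusted p values of 0.234 and 0.728 (edgeR). *Tjp1*, *Tjp3* and *Cldn12* changed sign, to 0.24, 0.23 and 0.46, with adjusted p values of 0.428, 0.694 and 0.149 (edgeR). *Cldn1* was at 0.99 (SE 0.26, adjusted p = 0.0237 in edgeR), just under the fold change limit. The markers did not move alike, with log2 fold changes on the TMM scale from −1.5 for *Krt14* to −0.37 for *Trp63*, so this scale depends on the list.

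**Figure D2:**
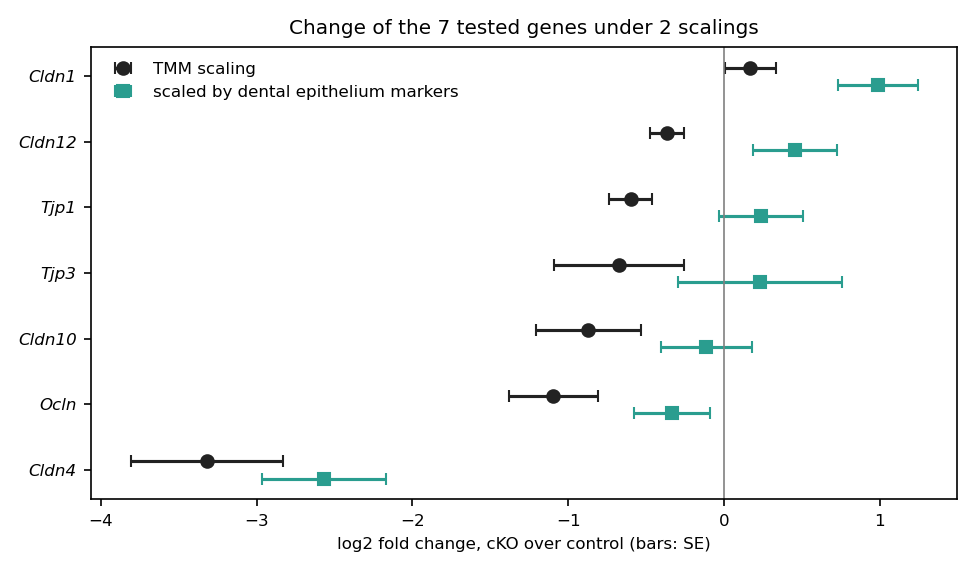
Log2 fold change of the 7 tested genes, cKO over control, under TMM scaling (black circles) and under scaling by 8 dental epithelium markers (green squares). Bars are the SE. *Cldn4* is far below 0 on both scales, at −3.32 and −2.57, whereas *Tjp1*, *Tjp3* and *Cldn12* lie on opposite sides of 0.

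Ratios of genes within a library do not depend on how libraries are scaled to each other. There were 2.35, 4.19 and 4.26 *Cldn1* transcripts per *Cldn4* transcript in the control libraries by TPM, and 45.7, 57.0 and 24.7 in the cKO libraries. *Tjp1* per *Cldn1* was 0.581, 0.610 and 0.602 in control and 0.354, 0.386 and 0.321 in cKO libraries, so the scaffold and the main claudin were in a nearly fixed proportion within each group and in a different one between groups. *Cldn1* per *Ocln* was 5.18 to 6.22 in control and 10.2 to 19.3 in cKO libraries. *Cldn12* per *Tjp1* overlapped, at 0.348 to 0.404 in control and 0.364 to 0.489 in cKO libraries. With 3 libraries against 3, an exact permutation test cannot go below 0.1 for any of these ratios.

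The mixture of claudins can be read from their shares of the TPM sum. All claudins together summed to 300, 255 and 260 TPM in control and 254, 182 and 233 TPM in cKO libraries. *Cldn1* made up 30.8% to 31.4% of this sum in the control and 42.5% to 48.1% in the cKO, and the claudins other than *Cldn1* summed to 175 to 206 TPM against 104 to 134 TPM. The share of *Cldn4* was 13.3%, 7.48% and 7.23% in control and 1.05%, 0.752% and 1.72% in cKO libraries. *Cldn10* held 13.6% to 16.5% and 6.26% to 13.9%. *Cldn12* held a similar share in both groups, at 6.45% to 7.74% and 6.19% to 8.09%.

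**Figure D3:**
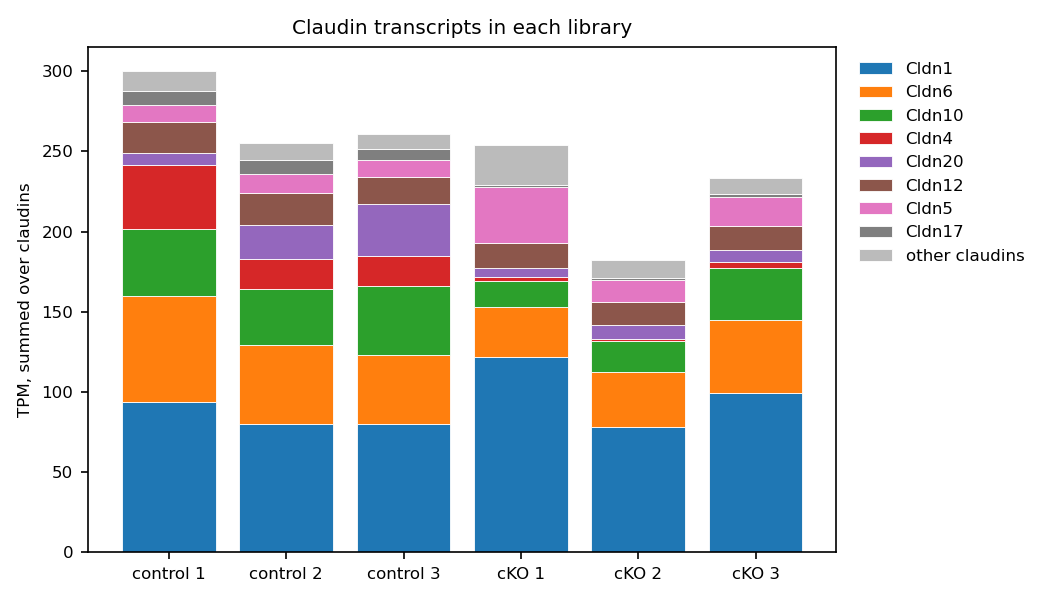
TPM of the claudins in each library, stacked, with the 8 most abundant claudins of the control drawn apart and all others in light grey. The *Cldn1* block is the largest in all 6 libraries, and the *Cldn4* block shrinks from 18.8 to 40.0 TPM in the control to 1.37 to 4.01 TPM in the cKO.

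The table held 20 other claudins, of which 7 were tested. *Cldn17*, which encodes an anion-selective claudin, passed the criterion. It fell from 4.58, 4.30 and 4.04 CPM to 0.570, 0.818 and 1.05 CPM. The edgeR estimate was −2.39 on the log2 scale (SE 0.33, adjusted p = 0.0498). This value was −1.62 on the scale of the epithelial markers. *Cldn20* (−1.55, SE 0.56), *Cldn8* (−1.35, SE 0.37), *Cldn15* (1.22, SE 0.46) and *Cldn5* (0.92, SE 0.33) did not pass, with adjusted p values of 0.155, 0.0974, 0.167 and 0.149 (edgeR). *Cldn6*, the second most abundant claudin of the control by TPM, had −0.56 (SE 0.23) and an adjusted p of 0.197 (edgeR). *Cldn5* is the claudin of endothelium, and it was at 6.91 to 7.63 CPM in control and 20.8, 8.62 and 12.3 CPM in cKO libraries. The highest value was in cKO replicate 1, and the 7 endothelium markers also summed highest in a cKO library, with 281 to 355 CPM in control and 317 to 944 CPM in cKO libraries. All 7 had positive log2 fold changes, with a median of 0.93, and none passed. Their part in the *Cldn5* value was not tested.

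Other membrane proteins of the junction are *Marveld2*, which encodes tricellulin, the angulins *Lsr*, *Ildr1* and *Ildr2* that recruit it to contacts of 3 cells, and adhesion molecules of the JAM family. None of the 11 tested genes passed the criterion in edgeR, and the unadjusted p was 0.05 or less for 4 of them, against 24.5% of all tested genes. By DESeq2, 4 passed, with *Ildr2* and *Marveld2* lower and *Jam3* and *Esam* higher, and with the block in edgeR 3 passed, the same without *Esam*. Over all tested genes and both directions, 6.94% passed in DESeq2 and 6.09% with the block. The median log2 fold change of the 11 genes was −0.25, against −0.0043 for all tested genes. *Marveld2*, which lies next to *Ocln* on chromosome 13, was at 17.5, 9.63 and 11.7 CPM in control and 2.47, 1.38 and 4.15 CPM in cKO libraries. Its log2 fold change was −2.28 (SE 0.43, adjusted p = 0.0637 in edgeR and 0.0138 with the block), and there were 0.416 to 0.648 *Marveld2* transcripts per *Ocln* transcript in control against 0.161 to 0.313 in cKO libraries. *Ildr2* was at 23.5, 50.2 and 104 CPM in control and 3.99, 6.29 and 7.19 CPM in cKO libraries, with −3.35 (SE 0.56, adjusted p = 0.0556 in edgeR and 0.00504 with the block). *Jam3* had 1.34 (SE 0.47, adjusted p = 0.147 in edgeR and 0.0169 with the block). *Esam*, an endothelial adhesion molecule, had 1.12 (SE 0.35, adjusted p = 0.123 in edgeR).

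None of the 16 tested genes of the cytoplasmic plaque passed in edgeR, with or without the block, or in DESeq2, and the unadjusted p in edgeR was 0.05 or less for 2 of them, against 24.5% of all tested genes. Their median was −0.14. *Patj*, a scaffold of the Crumbs polarity complex, was at 89.7, 75.2 and 95.8 CPM in control and 49.5, 43.5 and 57.9 CPM in cKO libraries. The groups did not overlap, and the log2 estimate was −0.79 (SE 0.15, adjusted p = 0.0637 in edgeR). *Magi2* and *Ybx3* had −0.50 (SE 0.30) and −0.42 (SE 0.22), with groups that overlapped.

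Genes whose proteins bind claudins or act on them were examined as a further list. *Epcam*, whose product binds claudin 7, was at 418, 248 and 296 CPM in control and 284, 286 and 357 CPM in cKO libraries, with −0.05 (SE 0.21, adjusted p = 0.897 in edgeR). The protease gene *St14*, which encodes matriptase, had −1.03 (SE 0.19, adjusted p = 0.0637 in edgeR) and passed with the block (adjusted p = 0.00944, edgeR) and in DESeq2 (0.000227). *Prss8*, *Spint1* and *Spint2*, which encode prostasin and the inhibitors HAI-1 and HAI-2, had −0.87, −0.69 and −0.28 with adjusted p values from 0.151 to 0.549 (edgeR).

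Transcription factors that act on claudin and occludin genes in epithelia were examined as a list of 15. *Grhl3*, a grainyhead-like factor of epithelial barriers, fell from 16.1, 12.1 and 10.2 CPM to 1.33, 0.944 and 0.989 CPM, or by −3.55 in log2 units (SE 0.30, adjusted p = 0.0247 in edgeR). *Twist1*, a factor of mesenchymal cells, rose from 9.29, 16.5 and 8.97 CPM to 75.9, 45.8 and 41.9 CPM, or by 2.23 in log2 units (SE 0.33, adjusted p = 0.0498 in edgeR). The zinc finger repressors *Zeb1*, *Snai1* and *Zeb2* had 1.70, 1.49 and 1.45, with adjusted p values of 0.0808, 0.143 and 0.125 (edgeR), and in each of them every cKO library was above every control library, as in 14.5% of all tested genes. With the block 6 of the 15 passed, with *Grhl3*, *Ovol1* and *Ehf* lower and *Twist1*, *Zeb1* and *Snai1* higher, against 6.09% of all tested genes. *Snai2*, which is named here after its value was seen, was at 96.9 CPM in control and 97.8 CPM in cKO libraries on average. Papilla mesenchyme, which expresses *Twist1*, *Zeb1* and *Zeb2*, lies against the IEE. In its list 7 of 10 markers had positive log2 fold changes, with a median of 1.16 and a summed level of 3614 to 20848 CPM in control and 11347 to 12487 CPM in cKO libraries, and their part in these values was not tested.

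**Figure D4:**
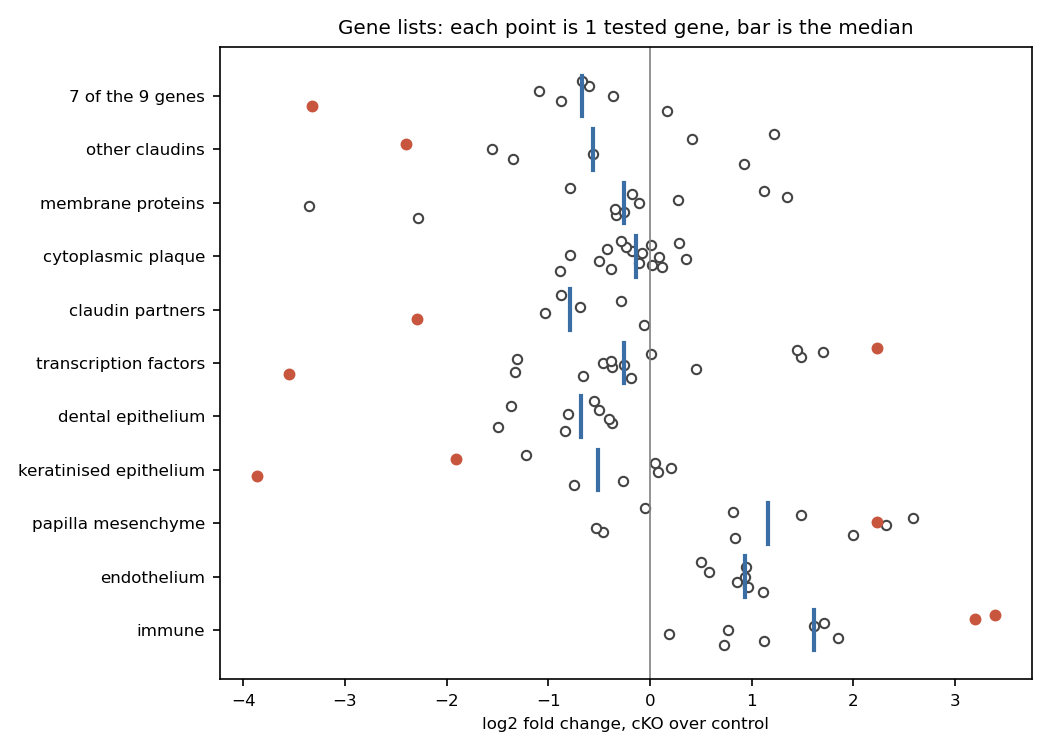
Log2 fold change, cKO over control under TMM scaling, of the tested genes of the lists named on the axis, 1 point per gene. *Twist1* stands in the lists of transcription factors and of papilla mesenchyme, and *Trp63* in those of transcription factors and of dental epithelium. Red points passed the criterion in edgeR and the blue bar is the median of the list, which is −0.67 for 7 of the 9 genes, −0.68 for dental epithelium and 1.61 for immune markers.

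Expression profiles over the 6 libraries were compared between *Cldn4* and 11592 genes with a mean of at least 5 CPM, by the root mean square distance of log2 CPM after each gene was centred on its own mean. The nearest were *P2rx2*, an ATP-gated ion channel gene, at a distance of 0.35, *Krt6a*, a keratin of suprabasal and wounded epithelia, at 0.47, and *Grhl3* at 0.50. Since these genes were chosen by their profile over the same libraries, a change in the same direction was fixed by the choice. Their log2 fold changes were −3.84, −3.87 and −3.55. For *Cldn1*, the only tested member with a positive value, the nearest were *Cd47*, *Rras* and *Phlda1* at distances of 0.046, 0.055 and 0.057. Keratinised epithelium, in which *Cldn4* and *Krt6a* are also expressed, was represented by 14 genes in the table, with 8 tested. *Krt6a* and *Dsg1a* passed the criterion as lower, and the median was −0.51. Of the other 6, *Calml3*, *Krt1* and *Krt10* had −1.22, −0.75 and −0.26, and *Krtdap*, *Lor* and *Sbsn*, genes of differentiating keratinocytes, had 0.21, 0.08 and 0.05. The list summed to 102 to 241 CPM in control and 52.8 to 61.4 CPM in cKO libraries. *Krt6a*, at 25.4 to 108 CPM in control and 3.21 to 6.92 CPM in cKO libraries, and *Dsg1a*, at 40.1 to 72.9 and 12.1 to 19.8 CPM, held most of this difference, together with *Krt4* and *Krt13* in control replicate 3, at 25.9 and 37.0 CPM. *Krt4* and *Krt13* are keratins of oral mucosa, so the sum describes the list and not a single cell type. The part of keratinised epithelium in the *Cldn4* value was not tested.

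Immune markers were higher on average in the cKO. All 9 had positive log2 fold changes, with a median of 1.61, and *S100a8* and *S100a9* passed the criterion. Their sum was 31.8 to 64.3 CPM in control and 63.2 to 213 CPM in cKO libraries. Markers of the ameloblast lineage, the later fate of the IEE, had 6 of 6 tested log2 fold changes negative, with a median of −3.46. The unadjusted p in edgeR was 0.05 or less for all 6, against 24.5% of all tested genes. No gene passed the criterion in edgeR without the block, 5 passed with the block and 3 in DESeq2. Of all tested genes, 6.09% passed with the block and 6.94% in DESeq2, in both directions. Schwann cell markers summed to 72.0 to 98.3 CPM in control and 52.5 to 74.5 CPM in cKO libraries. Leaving out cKO replicate 1, where the immune and endothelium sums were highest, gave −3.23 for *Cldn4* (adjusted p = 0.111), −0.95 for *Ocln* (0.199) and −0.62 for *Cldn10* (0.321, all edgeR).

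Promoter sequences from RefSeq (GRCm38.p6) were found for all 9 genes, with 15 start sites in all. They are shown for *Cldn4*, the member that fell, and for *Cldn1*, the abundant member that did not pass, as the 250 bases before the start site, 5′ to 3′. Capitals mark the E-box hexamer CACCTG or its reverse complement CAGGTG, the sequence bound by SNAI and ZEB repressors, and the *Cldn1* window has none.
Cldn4 (chr5:134946935-134947184, minus strand): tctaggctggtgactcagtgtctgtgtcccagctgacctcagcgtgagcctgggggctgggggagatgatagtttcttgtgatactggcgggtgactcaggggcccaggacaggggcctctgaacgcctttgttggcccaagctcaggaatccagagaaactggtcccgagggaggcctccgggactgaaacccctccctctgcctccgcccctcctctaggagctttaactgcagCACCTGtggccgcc
Cldn1 (chr16:26371840-26372089, minus strand): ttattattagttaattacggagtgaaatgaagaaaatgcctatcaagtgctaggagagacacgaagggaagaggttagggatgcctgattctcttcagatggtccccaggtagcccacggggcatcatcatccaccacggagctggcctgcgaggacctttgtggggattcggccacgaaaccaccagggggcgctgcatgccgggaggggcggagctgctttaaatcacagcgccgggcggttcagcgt

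The *Cldn4* hexamer began 14 bases before the start site. The hexamer was present in 5 of the 15 windows of the members (33.3%), belonging to *Cldn4*, *Cldn7*, *Ocln* and *Tjp3*, and in 17.2% of the 32851 promoter windows of the same length. The matches in the other 3 genes are shown with up to 10 bases on either side.
Ocln (chr13:100552696-100552721, minus strand, 213 bases before the start site): atcggagtttCAGGTGaatgggtcac
Ocln (chr13:100552551-100552576, minus strand, 68 bases before the start site): aggggctcggCAGGTGggtcccagcg
Cldn7 (chr11:69965314-69965339, plus strand, 97 bases before the start site): tcttcctcttCACCTGgacgaggagg
Cldn7 (chr11:69965354-69965379, plus strand, 57 bases before the start site): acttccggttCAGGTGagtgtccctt
Tjp3 (chr10:81291674-81291699, minus strand, 108 bases before the start site): cacaaggggtCAGGTGtacagacagg
Tjp3 (chr10:81291269-81291294, minus strand, 17 bases before the start site): caaaccctccCACCTGcaggccggcc

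The grainyhead-like palindrome AACCGGTT was in none of the 15 windows and in 0.116% of all windows, and the looser form AACNNGTT was in none of the 15 and in 3.64% of all. Windows of 1 gene overlap where its start sites are close. By base composition the *Cldn4* window had 62.0% G and C with 7 CpG dinucleotides, and the *Cldn1* window 55.6% with 14, against medians of 52.4% and 6 over all windows. These matches describe the letters of the windows, and binding was not measured.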

How the data were processed

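RNA-seq libraries from laser-captured IEE of E18.5 mandibular first molars were compared, 3 control (*Kdf1* fl/fl) and 3 cKO (*K14-Cre;Kdf1* fl/fl). The authors deposited 1 table with estimated counts per gene, not normalised, of which 10.9% to 11.5% per library were not whole numbers. The deposited TPM and FPKM values are the authors' length-scaled levels, and FPKM and the authors' group means were not used. The submitters' processing notes name BWA 0.7.12, Picard 2.6.0 and StringTie without a role. The counting program, strand setting and genome build are not given in the sources used here, so no coordinates of the counted genes are printed.

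Estimated counts were rounded. Genes were filtered with filterByExpr in edgeR 4.0.16 (R 4.3.3), scaled by TMM and tested by robust quasi-likelihood fits, two-sided, with Benjamini-Hochberg adjustment over 14131 genes. The SE was the log2 fold change divided by the root of F. Depth was 14713918 to 16675133 counts, and a count of 0 allows 3 counts, for counting error only. Same-numbered libraries deviated together (r = 0.135, 0.324 and 0.499 across genes). The labels and the paper state no pairing of the RNA-seq libraries, so the block was kept as an alternative. It is given where it changes a call of a member, and for some other genes and lists. Alternatives were DESeq2 1.42.0, limma 3.58.1 (voom, and log2(TPM + 1) or log2(TPM + 0.1)), other scalings and filters, and leaving out each library. The procedure was tested on simulated counts.

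The members and lists were chosen with earlier results of these data known. Named were all members, *Kdf1*, genes of each list past the criterion, up to 4 more per list with the largest fold changes at 1 CPM or more, and the 3 nearest profiles for the members with the largest rise and fall. *Cldn6*, *Epcam*, *Ehf*, *Snai2*, *Trp63*, *Lor*, *Sbsn*, *Krt4*, *Krt13*, *Cldn2*, *Cldn11* and *Sox10* were named after their values were seen. Results for some genes of the lists are not reported here.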

Additional observations from a re-analysis of the deposited data

How the results depend on the processing

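Results rest on 3 libraries per group, and the calls in edgeR lay close to the threshold. The direction of each of the 7 tested members was kept in all 6 fits that left out 1 library, and the signs of *Tjp1*, *Tjp3* and *Cldn12* turned only under scaling by dental epithelium markers, with log2 fold changes of 0.24, 0.23 and 0.46. The cause was not tested. At this depth *Cldn3* could not be compared.

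The number of members past the criterion was 1. It was 2 in DESeq2 and with the replicate block, and 0 with DESeq2 size factors in edgeR, library size alone, a filter of 10 counts in every library, limma-voom and log2(TPM + 1) without a filter. With 1 library left out it ran from 0 to 3. The other claudins, also 1, were 0 under the same 5 settings that gave 0 members and 4 under the marker scaling (1 lower, 3 higher), with 0 to 2 when a library was left out. The claudin partners, 1 in the fit as reported, were 2 in DESeq2 and with the block and 0 under the same 5 settings, with 0 to 2 when a library was left out. The other tight junction genes, 0 in edgeR, were 4 in DESeq2, 3 with the block and 6 under the marker scaling, with 0 to 1 when a library was left out. The transcription factors, 2 in edgeR, were 7 in DESeq2, 6 with the block, 6 under the marker scaling, 0 in log2(TPM + 1) without a filter, and 1 with DESeq2 size factors, library size alone, a filter of 10 counts, limma-voom and limma on log2(TPM + 1) or log2(TPM + 0.1). They were 0 to 4 when a library was left out. Of all 14131 tested genes, 61 passed in the fit as reported, 980 in DESeq2, 860 with the block and 3898 under the marker scaling. At most 9 genes passed under each of the 5 settings that gave 0 members. Of the fits that left out a library, the highest count in each list came without cKO replicate 3. In that fit 465 of all 14391 tested genes passed, against 1 to 16 genes in each other fit of this kind. The block changed no call of a member other than that of *Ocln*.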

Other observations

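The control libraries differed among themselves in some junction genes that are no members. *Ildr2* was at 23.5, 50.2 and 104 CPM in control replicates 1, 2 and 3 and *Cldn20* at 1.70, 4.48 and 7.96 CPM. The enamel matrix gene *Enam* was at 88.5, 964 and 2323 CPM and *Amelx*, which encodes amelogenin, at 1244, 4584 and 10697 CPM in the same libraries. *Cldn4* did not share this order, as its highest control value was in replicate 1.

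*Krt4* and *Krt13*, keratins of oral mucosa, had 410 and 585 counts in control replicate 3 and at most 6 counts in any other library, and *Cldn4* in that library was at 18.2 CPM, between the other control libraries. *Cldn2* had no count in the control and 37, 3 and 8 counts in the cKO libraries, and *Cldn11*, a claudin of myelinating cells, had 3, 8 and 4 counts in control and 97, 27 and 8 counts in cKO libraries. Both were highest in cKO replicate 1, where *Sox10*, a glial marker, had 92 counts against 8 in each other cKO library and 1 in each control library.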
